A study of Drosophila melanogaster with 33 samples.

Results

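The clock neurons of *per01* flies and of wild-type flies were compared at CT24, the subjective dawn of constant darkness, to ask which chromatin regions gain or lose accessibility when the PER protein is missing. Of the 33 ATAC-seq libraries of the series, 7 belong to this comparison by their labels, 4 from *per01* and 3 from wild type. In ATAC-seq the transposase Tn5 inserts sequencing adapters into DNA that is not wrapped tightly, so that read ends accumulate at accessible chromatin. In both genotypes the flies carried 1 copy of *Clk-GAL4* with UAS-GFP-NLS, which puts a nuclear GFP into cells where the *Clk* driver is active, and live GFP-positive cells of dissociated adult brains were sorted. The *per01* flies additionally carried the *per01* null allele on their X chromosome, and their label gives them as *per01*/Y, that is, as males. The wild-type label gives no sex and the study's methods speak of brains of males and females, so genotype, sex composition and strain background cannot be told apart here. The sorted pool mixes the subgroups of clock neurons, and fewer open cells cannot be told apart from less accessibility per cell. Separate cultures or broods are not named for the replicates, so p-values measure the spread between these libraries.

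In the fly clock the transcription factors CLK and CYC bind E-boxes and switch on *per*, *tim*, *vri* and *Pdp1*. PER, together with TIM, enters the nucleus late at night and holds CLK/CYC back until it is degraded in the morning, which makes dawn the phase of repression. In a second loop VRI represses and PDP1 activates *Clk* through VP-boxes. The *per01* allele makes no functional PER protein, and flies that carry it have no behavioral rhythm in constant darkness.

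Of the 40 tested regions of the core clock genes, 11 held an E-box anywhere in the region. At CT24, 7 of the 11 were more accessible in *per01* and none less, while 4 did not pass the limma test at an adjusted p of 0.1 (at *Pdp1* 7854708, 7867020 and 7867491 with 0.12, 0.02 and -0.31 on the log2 scale, and at *cwo* 10390316 with 0.29). Of the 29 without an E-box, 5 were higher and 3 lower, next to 3.58% and 4.18% of all tested regions. The genome-wide shares below use only the 200 bp around the summit. By that measure the core regions with an E-box were *Pdp1* 7834838 and *per* 2687337, which rose, and *Pdp1* 7867020 and *cwo* 10390316, which did not pass. The E-box nearest to the summit is shown for 6 of the 7 regions that rose, which were chosen for their rise. Each run holds 50 bases on either side of the E-box, is read from the plus strand of the fly genome of RefSeq (Release 6, the dm6 build of the peak lists), and has the E-box CACGTG in capitals.
per, upstream X:2685000-2685105: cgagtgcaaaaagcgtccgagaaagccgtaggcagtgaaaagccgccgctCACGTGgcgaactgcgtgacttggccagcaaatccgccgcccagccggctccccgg
per, intron X:2687385-2687490: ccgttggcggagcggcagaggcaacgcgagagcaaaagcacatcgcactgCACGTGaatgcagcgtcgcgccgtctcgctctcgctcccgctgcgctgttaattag
vri, intron 2L:5303302-5303407: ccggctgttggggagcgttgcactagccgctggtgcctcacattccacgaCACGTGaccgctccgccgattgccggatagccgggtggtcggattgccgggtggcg
Pdp1, upstream 3L:7834082-7834187: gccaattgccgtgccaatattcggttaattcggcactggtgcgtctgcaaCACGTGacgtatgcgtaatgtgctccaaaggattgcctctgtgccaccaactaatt
Pdp1, intron 3L:7835209-7835314: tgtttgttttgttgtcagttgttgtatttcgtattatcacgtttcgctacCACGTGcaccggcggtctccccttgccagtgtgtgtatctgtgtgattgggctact
Pdp1, second intronic region 3L:7837030-7837135: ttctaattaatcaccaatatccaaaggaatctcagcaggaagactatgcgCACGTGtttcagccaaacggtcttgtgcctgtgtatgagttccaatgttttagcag
The E-box of the intronic *per* region lay 21 bp from the summit and that of the first intronic *Pdp1* region 91 bp. The others lay 109 bp (upstream *Pdp1* region), 122 bp (*vri*), 128 bp (second intronic *Pdp1* region) and 188 bp (upstream *per* region) from the summit. A region at the start of *tim* also held 1 E-box, 117 bp from its summit. A match to these letters is a description and not a bound site.

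The authors deposited 1 list of MACS2 peaks per library. From the fold enrichment and the p of each peak, the whole number of read ends at its summit was recovered, and these are called tags. A level is given here as CPM, the tags at the highest summit of a region per M (mega) tags of the library. Peaks of the 7 lists that shared at least 1 bp were merged into 27322 regions. Of these, 20406 were called in at least 3 libraries and were tested, and 12926 were called in all 7. The *per01* libraries held 5.15 to 9.03 M tags (median 8.66 M) in 17577 to 21075 peaks, and the wild-type libraries 9.19 to 14.1 M tags (median 9.19 M) in 20146 to 22265 peaks. Every *per01* library was thus shallower than every wild-type library, and *per01* replicate 3 was the shallowest with 5.15 M. Over regions called in all 7, log2 levels correlated with r of 0.938 to 0.958 within *per01*, 0.965 to 0.970 within wild type and 0.928 to 0.948 between the genotypes. Where a library had no call in a region, the smallest tag number of any peak it did call stood in, and differences are on the log2(tags + 1) scale after scaling by the median of ratios, as *per01* minus wild type. The difference of a region without a call in some libraries depends on that stand-in. It was therefore also computed with a second one, the most tags that the local background would have left uncalled, termed the local limit.

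At CT24, *per01* clock neurons had more accessible chromatin at *per*, *tim*, *vri* and *Pdp1*, and less at an intron of *Clk*. Over the genome, 7.76% of tested regions passed the limma test with Benjamini-Hochberg adjustment at a threshold of 0.1, 3.58% higher and 4.18% lower. Of the 40 tested regions of the 7 core clock genes, 12 were higher and 3 lower, which is 37.5%. No region of *cyc* (2 tested) or of *cwo*, which encodes an E-box binding repressor (5 tested), was among them. The median difference over the 40 regions was 0.19 on the log2 scale, against 0.01 over all tested regions.

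**Figure D1:**
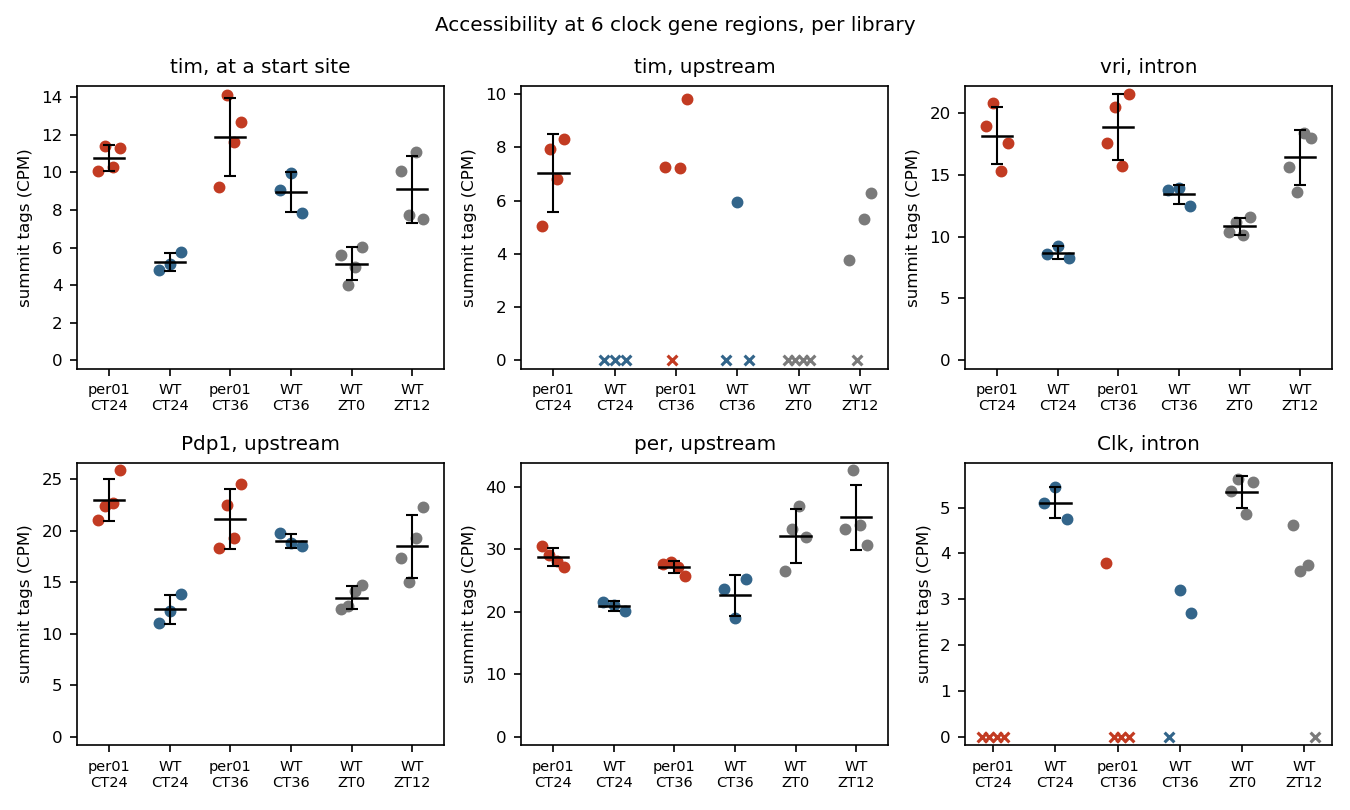
CPM at the highest summit (y axis) in *per01* (red) and wild-type (blue) clock neurons at CT24 and CT36 and in wild-type clock neurons at ZT0 and ZT12 of light-dark cycles (grey), for the region of each core clock gene with the lowest adjusted p at CT24, and for *tim* the 2 lowest. Points are libraries, crosses at 0 are libraries without a call, and bars are mean ± SD where all libraries of a group had a call. At the *tim* region with a start at 3507850, the *per01* libraries at CT24 sit between 10.1 and 11.4 and the wild-type libraries between 4.79 and 5.75.

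*tim* (FBgn0014396) encodes the partner of PER. Its region at 2L:3507850-3508134, at an annotated start of the gene, had 10.1, 11.4, 10.3 and 11.3 CPM in the *per01* libraries and 4.79, 5.11 and 5.75 in wild type. All *per01* libraries were thus about equal and well above all wild-type libraries, with a log2 difference of 0.99 ± 0.14 (standard error) and a limma adjusted p of 0.0031. A region further upstream, 2L:3508859-3509039, with its summit at -814 bp from the nearest start, had 5.06, 7.95, 6.8 and 8.31 CPM in *per01* and no call in any wild-type library. Its log2 difference was 1.87 ± 0.23 (limma adjusted p = 0.00099), and 0.79 (limma adjusted p = 0.014) with missing calls at the local limit. Another *tim* region, 2L:3507168-3507576, which holds the E-box, had 19.1, 24.8, 17.7 and 20.5 CPM against 9.36, 13.7 and 15.3, and a log2 difference of 0.66 (limma adjusted p = 0.061). An antisense RNA gene, asRNA:CR45300, lies beside the upstream *tim* region, and ATAC-seq does not tell strands apart.

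*vri* (FBgn0016076) encodes the repressor of the second loop. Its intronic region at 2L:5303220-5303771, one of those printed above, had 18.9, 20.8, 15.3 and 17.6 CPM in *per01* and 8.59, 9.25 and 8.24 in wild type. The groups did not overlap, and the log2 difference was 1.00 ± 0.12 (limma adjusted p = 0.00086). The region at a start of *vri*, 2L:5305304-5305879, rose by less, with 24.1, 20.2, 17.5 and 20.4 against 14, 13.7 and 16.1 CPM (0.44 on the log2 scale, limma adjusted p = 0.078). Within the same gene another intronic region, 2L:5306444-5307092, went the other way: its 19.3, 19.5, 22.7 and 19.5 CPM in *per01* all lay below the 28.0, 23.5 and 23.1 of wild type (-0.33, limma adjusted p = 0.052).

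*Pdp1* (FBgn0016694) encodes the activator of *Clk*, and 5 of its 17 tested regions were higher and 1 lower. At 3L:7833690-7834358, upstream of an internal start, *per01* had 21.1, 22.4, 22.7 and 25.9 CPM and wild type 11.1, 12.2 and 13.9, a log2 difference of 0.85 ± 0.12 (limma adjusted p = 0.0025). The neighbor region 3L:7833075-7833276 had 8.32, 9.13, 8.74 and 9.64 against 4.9, 5.77 and 6.18 CPM (0.63, limma adjusted p = 0.044), and its 200 bp around the summit held a VP-box (TTACGTAA) and no E-box. The intronic regions with an E-box each rose by less: 3L:7834838-7835633 by 0.39 (limma adjusted p = 0.028) and 3L:7837063-7837358 by 0.48 (limma adjusted p = 0.012), with no overlap between the groups in either. The fifth, 3L:7836834-7836944, had calls in 3 *per01* libraries and no wild-type library, and did not pass at the local limit (limma adjusted p = 0.16). The region that fell, 3L:7840128-7840512, had 5.87, 6.85 and 5.82 CPM in wild type and a single *per01* call of 4.86 (-1.36, limma adjusted p = 0.028). The 8 *Pdp1* regions from 3L:7847568 onward, of which 2 lie at promoters, had differences between -0.37 and 0.31 and none passed.

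At *per* (FBgn0003068) itself, the upstream region X:2684586-2685277, with its summit at -715 bp from the start, had 30.6, 29.1, 28.2 and 27.1 CPM in *per01* and 21.6, 21.1 and 20.1 in wild type. This difference of 0.41 ± 0.07 (limma adjusted p = 0.010) was small, and the replicates of each genotype lay close together. The intronic region X:2687337-2688058 had 8.1, 10.9, 8.74 and 10.1 CPM against 5.55 and 5.11 with 1 wild-type library without a call (1.25, limma adjusted p = 0.055). The region that covers the start, X:2685373-2686392, had 18.5 to 19.9 CPM in *per01* and 16 to 18.6 in wild type and did not pass (0.13, limma adjusted p = 0.42).

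*Clk* (FBgn0023076) had a loss and no gain. Its intronic region at 3L:7772239-7772591 had 5.11, 5.44 and 4.76 CPM in wild type and no call in any of the 4 *per01* libraries. The log2 difference was -1.34 ± 0.19 (limma adjusted p = 0.0026), and -0.74 (limma adjusted p = 0.025) at the local limit. The other tested *Clk* region, 3L:7770407-7771193, had 22.7 to 23.7 CPM in *per01* and 18.9 to 24.4 in wild type, with a difference of 0.04 (limma adjusted p = 0.86). The 200 bp around the summit of the lost *Clk* region are shown with those of the gained upstream *tim* region, since these are the clock regions that were called in every library of 1 genotype and in none of the other. Neither window held an E-box or a VP-box (TTATGTAA, TTACGTAA or TTATATAA) on either strand, which says only that these letters are absent from it.
tim, upstream 2L:3508833-3509032: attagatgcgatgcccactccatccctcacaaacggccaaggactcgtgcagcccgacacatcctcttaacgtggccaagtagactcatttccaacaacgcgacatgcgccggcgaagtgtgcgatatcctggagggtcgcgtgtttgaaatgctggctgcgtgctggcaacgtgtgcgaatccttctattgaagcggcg
Clk, intron 3L:7772228-7772427: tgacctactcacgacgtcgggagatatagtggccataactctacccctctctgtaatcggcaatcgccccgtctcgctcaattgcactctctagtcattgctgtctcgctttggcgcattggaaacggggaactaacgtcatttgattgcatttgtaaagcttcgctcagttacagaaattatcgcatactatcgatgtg

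Leaving out any 1 library kept the calls of 7 of the 15 clock regions: *tim* at 3507850 and 3508859, *vri* at 5303220, *Pdp1* at 7833690 and 7837063, *per* at 2684586 and *Clk* at 7772239. In the sum of all called peaks over a gene and 1 kb upstream, *tim* rose from 22.6, 30.2 and 32.1 CPM in wild type to 49.5, 60.4, 48.6 and 56.7 in *per01* (log2 difference 0.89, limma adjusted p = 0.043), and *per* rose by 0.55 (limma adjusted p = 0.043). The sums of *Pdp1* (0.15), *vri* (0.20) and *Clk* (-0.21) did not pass.

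These clock gene differences were read beside 3 other sets of libraries that share none with the CT24 comparison. At CT36, the subjective dusk, none of the 40 clock regions passed the limma test between *per01* and wild type. Only 0.995% of all tested regions passed at CT36, and 3 of the 40 had an unadjusted limma p below 0.05. The *per01* libraries of CT36 held 4.18 to 12.2 M tags (median 6.08 M) and the wild-type libraries 8.72 to 11.2 M (median 11.1 M). The upstream *Pdp1* region was level there, with 18.3, 22.5, 19.3 and 24.6 CPM in *per01* and 19.8, 18.8 and 18.5 in wild type, a difference of 0.05. The *tim* region at 3507850 had 9.21, 14.1, 11.6 and 12.7 against 9.06, 9.96 and 7.83 CPM, a difference of 0.30 (limma adjusted p = 0.45). The intronic *vri* region had 17.6, 20.5, 15.7 and 21.5 against 13.8, 13.9 and 12.5 CPM, and the groups did not overlap, but 0.38 did not pass (limma adjusted p = 0.20). The difference between the CT24 and CT36 contrasts was itself tested and did not pass for any of the 40 clock regions (lowest limma adjusted p 0.27).

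In wild-type clock neurons under light-dark cycles, the *tim* region at 3507850 had 5.6, 4.02, 4.95 and 6.01 CPM at ZT0 (dawn) and 10.1, 7.71, 11.1 and 7.52 at ZT12 (dusk), so the *per01* level at CT24 lay near the wild-type level of dusk. The upstream *per* region had 26.6, 33.2, 37.0 and 31.9 CPM at ZT0 and 33.2, 42.7, 33.9 and 30.7 at ZT12. In CPM these wild-type libraries thus lay around or above the *per01* level of CT24. The gene lies on X, however, and X held 17.2% to 19.8% of summit tags in these light-dark libraries against 14.7% to 15.7% at CT24. Levels of X regions are therefore not directly comparable between these sets. The intronic *vri* region had 10.1 to 11.6 CPM at ZT0 and 13.6 to 18.4 at ZT12. The *Clk* intron that lost its call had 5.36, 5.63, 4.85 and 5.55 CPM at ZT0 and 4.62, 3.61 and 3.75 with 1 library uncalled at ZT12. Non-clock cells were GFP-negative cells of the same genotypes with no time in their labels. In them 1 of the 40 clock regions passed, next to 3.98% of all tested regions. This was the upstream *per* region, with 23.7, 26.4, 29.5 and 31.1 CPM in *per01* and 16.7, 18 and 18 in wild type (0.68, limma adjusted p = 0.0044). The upstream *tim* region had no call in any of the 7 non-clock libraries, so the test of clock neurons against non-clock cells rests on stand-ins there. It gave 1.66 (limma adjusted p = 0.0053), and at the local limit it did not pass (0.63, limma adjusted p = 0.29).

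Beyond the clock genes, 730 regions were higher and 853 lower in *per01*, next to 604 and 639 genes. In 702 of the 730 and 798 of the 853 no *per01* library overlapped a wild-type library after scaling. Regions without such overlap made up 8.79% of all tested regions in each direction, and 3845 regions had an unadjusted p below 0.05. The median difference was 0.79 for the higher and -0.60 for the lower regions, and 181 and 143 of them differed by at least 2-fold. Among regions with a call in all 7 libraries, 318 were higher and 559 lower (2.46% and 4.32% of 12926), with medians of 0.60 and -0.46, and only 19 and 11 reached 2-fold. So most changes were of less than 2-fold, and most large ones involved libraries without a call. These counts come from the fit over all tested regions. When the 12926 regions called in all 7 were fitted alone, 613 were higher and 815 lower. The balance of directions depended on the scaling: 46.1% of called regions were higher with the median of ratios and 63.1% (743 higher, 434 lower) with total tags, which moved the median of all regions from 0.01 to 0.05.

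**Figure D2:**
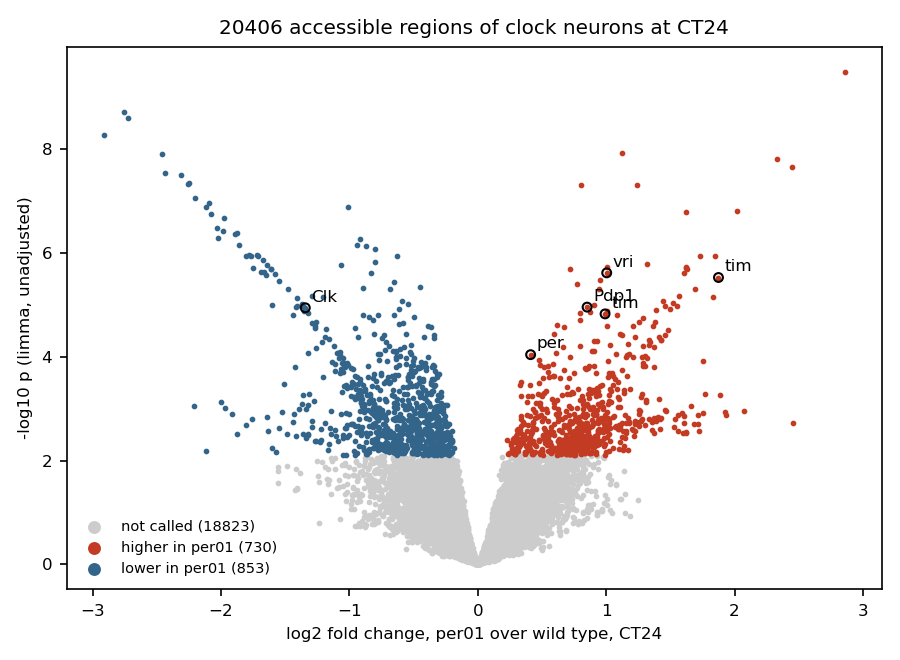
Difference between *per01* and wild type at CT24 (x axis, log2) against −log10 of the limma p (y axis) for all 20406 tested regions, with the 730 higher regions in red, the 853 lower in blue and the others in grey. Black circles with gene names mark the 6 clock gene regions of the plot by library. Straight streaks of points are regions whose libraries lack calls and share the stand-in value.

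The count of calls depended on single libraries. Without *per01* replicate 3, the shallowest library, 2168 regions passed, and without wild-type replicate 1, 2 or 3 it was 381, 676 or 604. Without *per01* replicate 1, 2 or 4 it was 872, 911 or 989. Of the 1583 regions, 294 (114 higher, 180 lower) passed whichever library was left out, and no region that passed changed its direction.

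The same regions tended to differ in the same direction in the other libraries of these genotypes. Of the 730 higher regions, 649 were called in at least 3 CT36 libraries, and 583 of those (89.8%) were higher in *per01* at CT36 as well, with a median of 0.41. Over all tested regions 48.6% were higher there. Of the 853 lower regions, 778 were called at CT36 and 670 (86.1%) were lower, with a median of -0.25. At CT36 itself 203 regions passed (0.995%; 0.5% higher and 0.495% lower), and these included 77 of the higher and 60 of the lower CT24 regions.

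Non-clock cells gave a like picture. Of the higher regions, 545 were called there and 462 (84.8%) were higher in *per01* (median 0.26), against 48.4% of all tested regions. Of the lower regions, 796 were called there and 588 (73.9%) were lower (median -0.15). Over all tested regions called in the other set, 65.1% had the sign of CT24 at CT36 and 59.2% in non-clock cells. In non-clock cells 813 regions passed (3.98%; 1.84% higher and 2.14% lower), among them 154 of the higher and 150 of the lower CT24 regions in the same direction. Another 3 regions that rose at CT24 in clock neurons had fallen in non-clock cells. Some of the 813 may rest on non-clock peaks that span neighboring regions, and how many was not tested. The neighboring regions at *CG3744* and *CG11089*, for example, both had 16.1, 17.3 and 15.0 CPM in wild-type non-clock cells. In all, 55 of the higher and 47 of the lower regions passed in the same direction at CT24, at CT36 and in non-clock cells. A difference of a region between the genotypes in clock neurons at CT24 was thus often found away from that time and that cell type.

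**Figure D3:**
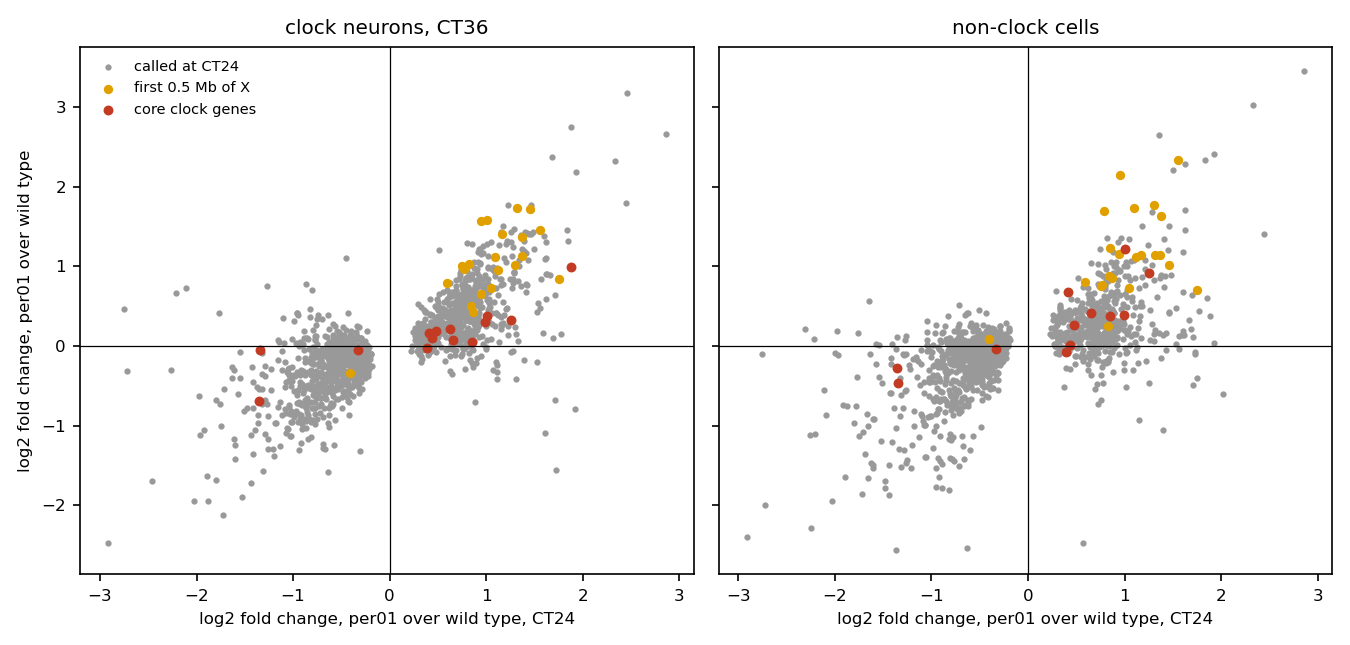
Difference between *per01* and wild type (log2) at CT24 in clock neurons (x axis) against the same difference at CT36 in clock neurons (left) and in non-clock cells (right), for regions past the threshold at CT24 that were called in at least 3 libraries of the other contrast. Most points lie in the quadrants of equal sign (89.8% of the higher and 86.1% of the lower regions at CT36), and regions of the first 0.5 Mb of the X chromosome lie above 0 in both panels where they were higher at CT24.

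The interaction tests addressed the difference between contrasts. The genotype difference at CT24 differed from that at CT36 in 12 regions (0.0588% of those tested by limma), of which 11 (0.0539%) had the lower and 1 (0.0049%) the higher difference at CT24. In 11 of the 12 a genotype had no call at CT24, and with missing calls at the local limit no region passed, while 1192 had an unadjusted p below 0.05. Against non-clock cells 137 regions passed (0.671%; 0.284% with the higher and 0.387% with the lower difference in clock neurons), among them 29 of the higher and 72 of the lower CT24 regions. In 60 of the 137 a genotype had no call at CT24. Of the 137, 42.3% were positive with the median of ratios and 66.7% (78 of 117) with total tags. Both counts moved with single libraries: the first was 5 or 6 without wild-type CT24 replicate 1 or 2 and 19 without *per01* CT36 replicate 1. The second was 500 without *per01* CT24 replicate 3, 375 without wild-type non-clock replicate 3, 212 without *per01* non-clock replicate 1, and 72, 73 and 76 without wild-type non-clock replicates 1 and 2 and wild-type CT24 replicate 1.

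The share of regions with an E-box was larger among the regions that rose. CACGTG, searched over the 200 bp around the summit (the letters read the same on both strands), was found in 980 of 20406 tested windows (4.80%), in 82 of the 730 higher windows (11.2%) and in 36 of the 853 lower windows (4.22%). Read the other way, 8.37% of windows with an E-box were higher in *per01*, against 3.34% of those without. Within introns 15.4% of the 266 higher windows held the motif against 5.24% of all intronic windows, between genes 11.6% of 164 against 5.30%, and at promoters 5.11% of 235 against 4.22%. In coding exons 6 of 31 higher windows held it (19.4% against 6.10%). In non-coding exons it was 4 of 14 (28.6% against 5.56%), and in 5' and 3' UTRs 0 of 8 and 0 of 12 (3.80% and 3.40% of all). The share was thus above its background in introns, exons and between genes, with few windows in exons, while promoters were near theirs. Among regions that passed whichever library was left out, 15 of 114 higher windows (13.2%) and 10 of 180 lower windows (5.56%) held it.

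**Figure D4:**
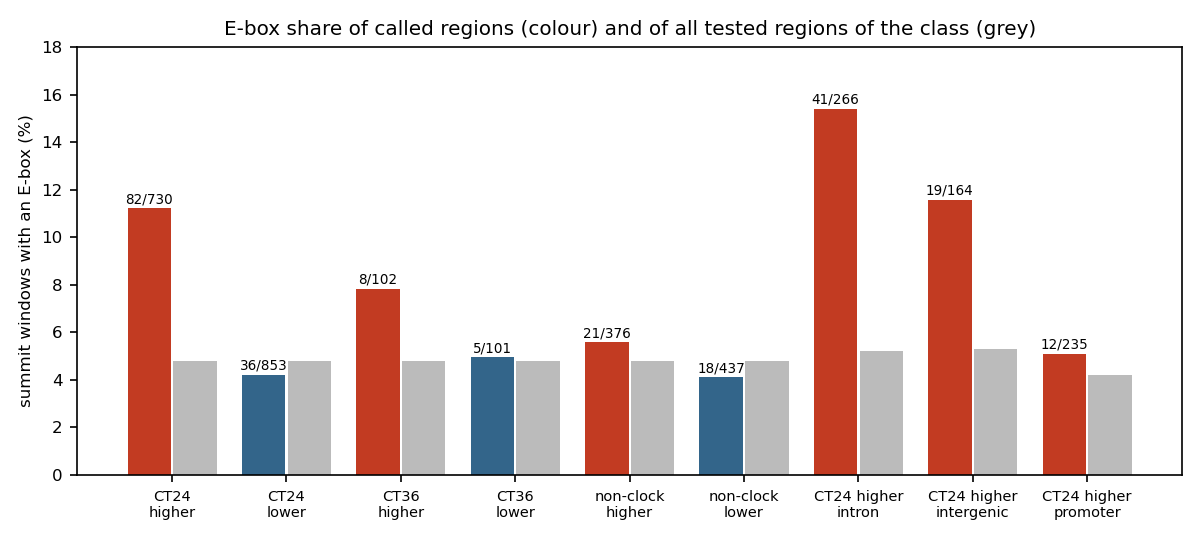
Percent of 200-bp summit windows with the E-box CACGTG (y axis, from 0) for regions higher or lower in *per01*, with the share over all tested windows of the same kind in grey, for 3 contrasts and for 3 kinds of location at CT24. The share of higher windows at CT24 is 11.2% against 4.80% of all tested windows, and that of lower windows is 4.22%.

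The share of E-boxes in other contrasts and fits was examined after the data had been seen. It was 7.84% (8 of 102) among regions higher at CT36 and 5.59% (21 of 376) among those higher in non-clock cells. Over the alternative fits of the CT24 comparison for which it was computed, it ranged from 8.97% to 14.8% of the higher windows. It was not computed for the stricter peak threshold, summit matching, regions called in any library, or the fit without X and Y. The VP-box was found in 2.3% of all, 3.70% of higher and 1.99% of lower windows. Of 3 other motifs searched on both strands, CCATTGT (Sox factors) was found in 3.81%, 4.11% and 3.75%, GAGAGAG in 9.29%, 9.04% and 11.3% and AGATAAG in 1.14%, 0.274% and 0.469% of all, higher and lower windows. Median GC content was 48.5%, 49.5% and 49.5%.

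The higher regions with an E-box also stood apart in light-dark libraries of wild type, which took no part in the comparison. Of the 82, 69 were called in at least 3 of the 8 LD libraries, and 52 of those (75.4%) were higher at ZT12 than at ZT0. Of the 532 higher regions without an E-box that were called there, 248 (46.6%) were higher at ZT12, and of all 924 E-box windows called there, 59.3% were. The median ZT12 difference was 0.22 for the first set and -0.03 for the second. At CT36 and in non-clock cells the median genotype difference of regions with an E-box was 0.23 and 0.22, and of those without 0.42 and 0.27.

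A further 5 of the 82 windows, chosen after their values were seen, are printed to show the motif in its context outside the core clock genes. The window at *Hk*, which encodes the beta subunit of the Shaker potassium channel, had the largest rise among them. Those at *nolo*, *Timp*, *CG31145* and lncRNA:CR43174 were called in all 7 libraries, and the last pair hold 2 E-boxes each. E-boxes are in capitals, and the plus strand of the same genome is shown.
Hk X:10252878-10253077: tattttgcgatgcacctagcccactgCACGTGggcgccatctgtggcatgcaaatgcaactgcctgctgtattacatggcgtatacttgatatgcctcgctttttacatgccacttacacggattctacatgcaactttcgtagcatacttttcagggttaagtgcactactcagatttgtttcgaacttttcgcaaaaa
nolo 2L:21712460-21712659: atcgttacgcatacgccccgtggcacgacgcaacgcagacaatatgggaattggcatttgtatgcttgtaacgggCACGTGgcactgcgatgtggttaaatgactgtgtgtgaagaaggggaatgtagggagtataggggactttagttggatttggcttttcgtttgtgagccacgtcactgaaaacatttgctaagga
Timp 3R:10213427-10213626: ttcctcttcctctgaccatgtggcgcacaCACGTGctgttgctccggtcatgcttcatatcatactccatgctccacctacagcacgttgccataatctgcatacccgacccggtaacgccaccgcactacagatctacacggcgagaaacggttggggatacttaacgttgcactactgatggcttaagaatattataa
CG31145 3R:23618400-23618599: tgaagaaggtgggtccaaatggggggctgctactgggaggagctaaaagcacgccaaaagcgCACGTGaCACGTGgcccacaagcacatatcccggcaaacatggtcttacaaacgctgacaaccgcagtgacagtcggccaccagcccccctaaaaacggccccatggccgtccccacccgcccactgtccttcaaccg
lncRNA:CR43174 3L:17945556-17945755: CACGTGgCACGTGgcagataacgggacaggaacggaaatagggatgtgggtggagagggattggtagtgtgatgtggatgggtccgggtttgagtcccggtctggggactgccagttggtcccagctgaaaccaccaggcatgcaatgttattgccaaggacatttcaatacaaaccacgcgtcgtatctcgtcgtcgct
The *nolo* region, 28454 bp into the gene at 2L:21712367-21712919, had 10.5, 9.85, 8.93 and 11.0 CPM in *per01* and 3.48, 4.68 and 5.26 in wild type (1.12 ± 0.18, limma adjusted p = 0.0057). It had no call in any non-clock library, and its difference at CT36 was 0.39 (limma adjusted p = 0.46). The promoter of *Timp*, which encodes an inhibitor of metalloproteinases, had 8.66, 7.95, 7.19 and 9.31 against 4.13, 4.9 and 3.69 CPM (0.91, limma adjusted p = 0.013). The intron of *CG31145* had 8.21, 8.66, 8.35 and 8.75 against 4.79, 4.57 and 3.76 CPM (0.91, limma adjusted p = 0.0068). An exon of lncRNA:CR43174 had 15.0, 12.7, 10.9 and 14.8 against 6.64, 6.53 and 7.53 CPM (0.89, limma adjusted p = 0.0094). In each of these 4 regions all *per01* libraries lay above all wild-type libraries, and none passed at CT36 or in non-clock cells.

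The largest gains over the genome were regions without any wild-type call. Beside *CG43149*, 14115 bp from its start at 3L:40041-40808, *per01* had 12.8, 12.5, 16.3 and 13.8 CPM (2.86 ± 0.16, limma adjusted p = 6.5e-06). The region was also open in all 4 *per01* libraries at CT36 (11.2 to 13.8 CPM) and in all 4 of non-clock cells (12.3 to 14.9), and had no call in any of the 14 wild-type libraries of these sets or of LD clock neurons. In the *Hk* intron, X:10252882-10253079, *per01* had 9.22, 9.49, 11.5 and 8.2 CPM (2.33 ± 0.18, limma adjusted p = 4.5e-05). It had 9.33 to 10.9 CPM in *per01* at CT36 and 8.44 to 11.3 in non-clock cells with no wild-type call in DD, but LD wild-type libraries called it in 7 of 8, at 5.85 to 10.3 CPM. The promoter of *Xrp1*, which encodes a bZIP transcription factor, had calls of 9.45, 9.37 and 12.6 CPM in 3 *per01* libraries and none in wild type (1.93, limma adjusted p = 0.044). It was higher in *per01* at CT36 (2.19) and in non-clock cells (2.41) too.

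Other large gains were at promoters. That of *CG13625* had 12.3, 9.73, 12.4 and 7.65 CPM (2.45 ± 0.20, limma adjusted p = 5.5e-05), that of *BORCS6* 6.86, 7.24, 8.93 and 7.76 (2.02), and that of *Egm* 6.64, 7.71, 8.16 and 5.1 (1.85), all with no wild-type call at CT24. At CT36 and in non-clock cells the differences were 1.80 and 1.41 at *CG13625*, -0.02 and -0.61 at *BORCS6*, and 1.32 and 0.60 at *Egm*. Of these, only that of *Egm* in non-clock cells passed (limma adjusted p = 0.045). All 3 wild-type non-clock libraries called *BORCS6* (5.9 to 8.46 CPM) and *Egm* (3.58 to 4.34 CPM). The promoter of *Sse*, the gene of separase, had 10.2 to 13.2 CPM against a single wild-type call of 7.96 (1.88). The remaining 2 of the 10 largest, at *px* (2.08) and *CG15172* (1.92), each lacked 1 *per01* call and did not pass at the local limit (limma adjusted p = 0.16 and 0.13). At that limit the differences of the others were smaller where the local background was high, such as 0.92 for *CG13625*, 1.12 for *Hk* and 0.51 for *BORCS6*.

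The largest loss lay between genes at 4:1305890-1306803, 34726 bp from *Cadps*, the gene to which it was assigned. Wild type had 19.7, 17.6 and 14.6 CPM, and *per01* a single call of 2.99 (-2.91 ± 0.21, limma adjusted p = 2.6e-05). The loss was of like size at CT36 (2.71 to 3.59 against 14.1 to 18.3 CPM where called) and in non-clock cells (2.67 to 4.32 against 17.1 to 19.1). The other 9 of the 10 largest losses were regions with 3 wild-type calls and at most 1 *per01* call. An intron of *brp*, the active zone scaffold Bruchpilot, had 14.8, 14.3 and 12.2 CPM (-2.75), and an intron of *CASK*, a synaptic scaffold kinase, 13.6, 15.2 and 11.7 (-2.72). A region 5069 bp from *Rdl*, a GABA receptor gene, had 10.8, 12.8 and 10.1 (-2.46). The others were at *enc* (-2.44), *jar* (-2.31), *Tet* (-2.26), *SoxN* (-2.25), *tara* (-2.21) and *CG13204* (-2.20). With missing calls at the local limit these 9 had differences of -0.37 to -0.65, so that their size rested on the stand-in, whereas that of the *Cadps* region remained at -2.91. By limma none of the 9 passed at CT36 (differences of -1.70 to 0.67) or in non-clock cells (-2.29 to 0.24). Over all tested regions 0.995% and 3.98% passed there. The *brp* intron was called in all 4 *per01* non-clock libraries, at 9.68 to 10.9 CPM.

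In regions with a call in all 7 libraries the log2 difference does not depend on a stand-in. Their adjusted p does, because the variance trend and the adjustment are shared over all tested regions. The 10 largest in each direction among them were taken after the values had been seen. The largest gain was in an intron of *Usp2*, a ubiquitin protease gene, at X:22461337-22461890, with 11.2, 11.7, 9.52 and 11.1 CPM against 3.26, 3.7 and 3.13 (1.62 ± 0.15, limma adjusted p = 0.00017). The promoter of *CG18467* had 32.7, 25.0, 26.0 and 30.5 against 12.1, 12.1 and 10.7 CPM (1.24 ± 0.11, limma adjusted p = 7.1e-05). Both were higher in *per01* at CT36 (1.31 and 0.84) and in non-clock cells (1.71 and 1.27) as well. An intron of *timeout*, a paralog of *tim*, had 6.41, 5.69, 5.24 and 4.99 against 2.28, 2.18 and 3.05 CPM (1.09, limma adjusted p = 0.020) and had a call in 1 of the 7 non-clock libraries. The others were 59102 bp from lncRNA:CR40469 (1.32) and at *pbl* (1.21), *nolo* (1.12), *CG13375* (1.12), *CG12024* (1.11), *out* (1.08) and *CG34135* (1.08).

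**Figure D5:**
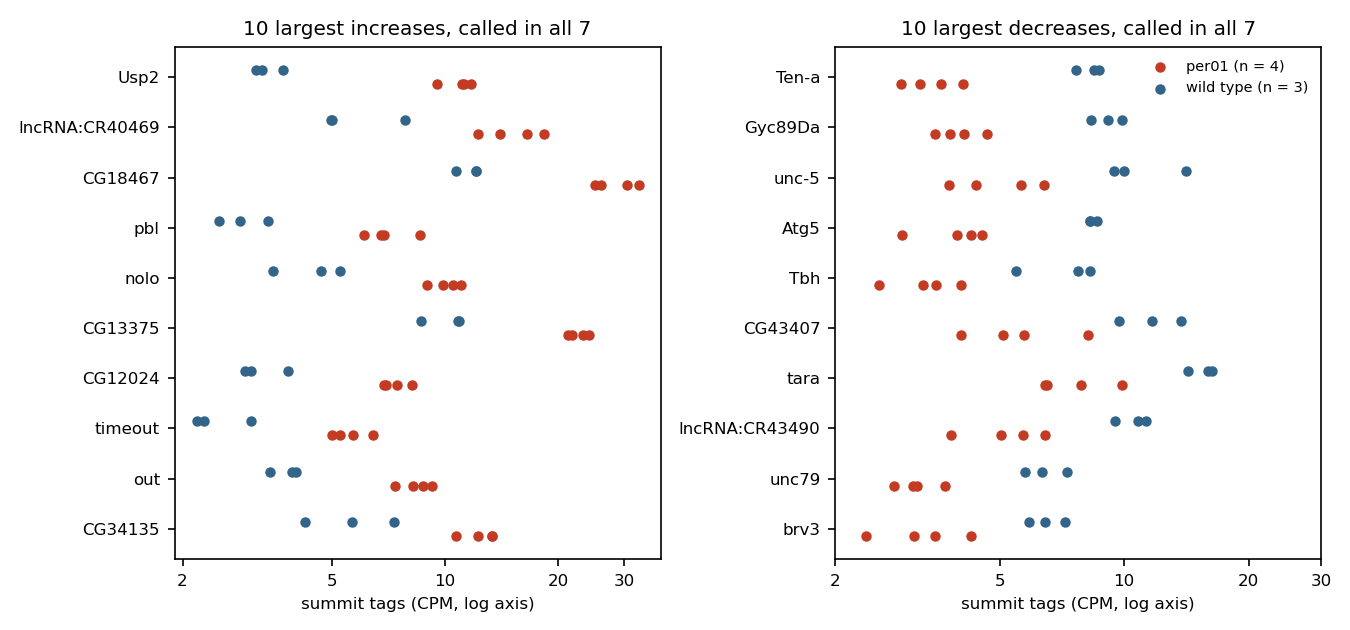
CPM (x axis, log scale) in the 4 *per01* and 3 wild-type libraries at CT24 for the 10 largest gains and the 10 largest losses among regions with a call in all 7 libraries. Each point is a library, and the genotypes do not overlap in any of these regions, which were chosen by the size of their difference.

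Among losses with calls in all 7, the promoter of *Gyc89Da*, an atypical soluble guanylate cyclase gene, had 3.49, 3.8, 4.66 and 4.1 against 9.14, 9.9 and 8.31 CPM (-1.21 ± 0.16, limma adjusted p = 0.0019). The promoter of *unc-5*, a netrin receptor gene, had 6.41, 4.39, 5.63 and 3.77 against 9.46, 14.1 and 10 CPM (-1.18, limma adjusted p = 0.0048). The same 2 regions fell in non-clock cells (-1.54 and -1.0), and at CT36 both passed too (-1.29 and -0.96). The promoter of *unc79*, whose protein belongs to the complex of the sodium leak channel, had 3.15, 3.08, 3.69 and 2.77 against 7.29, 5.77 and 6.32 CPM (-1.04, limma adjusted p = 0.013). An intron of *Tbh*, the gene of the octopamine-making enzyme, had 3.26, 4.03, 3.5 and 2.55 against 8.27, 7.72 and 5.47 CPM (-1.11, limma adjusted p = 0.015). At *brv3*, 3.49, 2.37, 4.27 and 3.1 CPM stood against 7.18, 6.42 and 5.9 (-1.02, limma adjusted p = 0.024), and neither the CT36 difference (-0.26) nor that of non-clock cells (-0.06) passed. The others were beside *Ten-a* (-1.29), in *Atg5* (-1.13), beside *CG43407* (-1.09) and *tara* (-1.07), and 15180 bp from lncRNA:CR43490 (-1.05).

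Gains clustered at the tip of the X chromosome. In its first 0.5 Mb, a window singled out after the values had been seen, 22 of 37 tested regions were higher (59.5%) and 1 lower. In the rest of X 112 of 3329 were higher (3.36%), and of the 244 windows of 0.5 Mb with at least 10 tested regions the next highest had 17.6%. The median difference in the window was 0.79 in clock neurons at CT24, 0.84 at CT36 and 0.85 in non-clock cells, with 14 regions higher by the test at CT36 and 23 in non-clock cells. The gene with most regions higher was lncRNA:CR40469 (6 of 7). These 6 regions lay between genes, 4926 to 67906 bp from it, and were assigned to it as the nearest gene. Among them X:63304-63463, 59102 bp away, had 16.5, 12.2, 18.3 and 14 CPM in *per01* and 5.0, 7.83 and 4.97 in wild type (1.32). The start of *CG13375*, X:294866-295493, had 23.3, 21.2, 24.1 and 21.8 against 10.8, 10.9 and 8.6 CPM (1.12 ± 0.09, limma adjusted p = 4.3e-05). The start of *G9a*, which encodes a histone H3 lysine methyltransferase, rose by 0.77, and that of *ewg*, a NRF-1 type transcription factor gene, by 0.94. Within 0.5 Mb of *per*, the locus of the mutation itself, 10 of 127 regions were higher (7.87%) and 8 lower.

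Over the whole X, 3.98% of 3366 regions were higher and 5.91% lower, against 3.50% and 3.82% on chromosomes 2 and 3. The share of summit tags on X was 14.9% ± 0.117 (SD, n = 4) in *per01* and 15.3% ± 0.300 (SD, n = 3) in wild type. The difference of -0.415 percentage points had an exact permutation p of 0.0286, two-sided, the smallest that 35 splits of 7 libraries allow, and with any library left out it could not pass. The promoter region of lncRNA:roX1, an RNA of male dosage compensation, had 3.59, 4.03 and 3.13 CPM in wild type and no call in *per01* (-0.84, limma adjusted p = 0.029), and did not pass at the local limit (limma adjusted p = 0.35).

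After lncRNA:CR40469, the genes with most higher regions were *Pdp1* (5 of 17), *CG32264* (5 of 27, with 2 lower) and *Rbp6* (5 of 56, with 3 lower). Those with most lower regions were *CASK* (5 of 13) and *sif*, a Rac exchange factor gene (5 of 28). With 4 each followed *SoxN*, a SoxB transcription factor gene (4 of 6), *CG44838* (of 7), *Bsg*, *ct* and *fne* (of 11 each) and *CG15431* (of 12). The losses of *CASK* were at 3 promoter regions (-0.29, -0.85 and -0.94) and 2 introns (-0.71 and -2.72, the latter without a *per01* call). The promoter region 3R:21814607-21815454 had 13.9, 15.5, 20.4 and 14 CPM against 29.2, 31.8 and 27.7 (-0.94, limma adjusted p = 0.00047), and it fell at CT36 (-0.70) and in non-clock cells (-0.53) too. At *SoxN* the main promoter region, 2L:8825053-8826010, had 46.9, 42.9, 51.7 and 41.8 CPM against 52.5, 53.7 and 46.7 (-0.20, limma adjusted p = 0.075), a small difference in which *per01* replicates 1 and 3 reached into the CPM range of wild type. Its gene sum fell by 0.45 (limma adjusted p = 0.025).

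Regions that changed were less often at promoters than the tested regions were. Promoters, from 1000 bp before to 100 bp after a transcript start, held 41.0% of tested regions, 32.2% of the higher and 33.8% of the lower ones. Introns held 35.5%, 36.4% and 45.4%, and regions between genes 15.6%, 22.5% and 15.6%. Median width was 291 bp for all tested, 293 bp for higher and 396 bp for lower regions.

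Outside the core clock, the share of regions past the threshold was at or below 14.8% in each functional gene list (cell type marker lists aside), against 7.76% of all regions and 37.5% of core clock regions. Of the marker lists, clock neuron markers, which include *Clk* and *tim*, had 25% of 24 regions. Transmitter markers of other neurons had 17.6% of 17 and glial markers 16.7% of 12, and the rest were at or below 8.70%. Of 83 regions of clock kinases, phosphatases and degradation factors, 4 were higher and 2 lower (7.23%). An exon of *ctrip*, a ubiquitin ligase gene, had 5.51, 6.17, 6.99 and 6.87 against 3.7, 3.37 and 3.05 CPM (0.86, limma adjusted p = 0.027). At *sgg*, the gene of the GSK-3 kinase that phosphorylates TIM, 1 promoter rose (0.47) and another fell (-0.61). The promoter region of *dco*, the casein kinase gene doubletime, had 4.13, 5.22 and 3.27 CPM in wild type and no call in *per01* (-1.05), and did not pass at the local limit (limma adjusted p = 0.15). By limma, no region of neuropeptide genes passed (29 regions of 14 genes, 2 with an unadjusted p below 0.05), and none of 17 housekeeping regions did (3 with an unadjusted p below 0.05).

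Of 73 regions of neuropeptide receptors, 2 were higher and 4 lower (8.22%, near the share of all regions). *Pdfr*, which encodes the receptor of the clock neuron peptide PDF, had 2 lower introns: X:2562264-2562601 with 2.59, 3.44, 3.88 and 2.44 against 6.42, 4.79 and 4.62 CPM (-0.80, limma adjusted p = 0.071), and X:2567139-2567754 (-0.52, limma adjusted p = 0.073). *AstA-R1* had 2 lower regions as well (-0.70 and -0.40), while 1 of *TrissinR* (0.63) and 1 of *TkR99D* (0.75) rose. Of 28 light input regions 2 were higher and 2 lower (14.3%), with a rise at *Rh7* (0.78) and both directions at *norpA*, the phospholipase C gene (0.83, -0.55 and -0.99).

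Potassium channel genes had 6 higher regions and 1 lower of 116 (6.03%, below the 7.76% of all regions). Besides *Hk*, the Shaker channel gene *Sh* rose in an intron with 6.64, 8.3, 9.32 and 7.2 CPM against a single wild-type call of 5.54 (1.46, limma adjusted p = 0.040), 2 regions of *Irk1* rose (0.68 and 0.90), and 1 each of *eag* (0.90) and *Shab* (0.45). *SK* had the lower region (-0.63). Sodium, calcium and leak channels had 1 higher region, the *stj* promoter (1.77), and 5 lower of 52 (11.5%), at *unc79*, *para* and *Ca-beta*. In *para*, the voltage-gated sodium channel gene, the introns fell by 0.57 and 0.23 on the log2 scale.

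Among 129 nuclear receptor regions 5 were higher and 3 lower (6.20%, below the 7.76% of all regions). *Eip75B*, an ecdysone-induced receptor gene, had 4 of the higher ones (0.26 to 0.75) and 1 lower (-0.33), and an intron of *EcR* rose (0.86) while another fell (-0.44). Co-regulators had 1 higher and 4 lower of 37 regions (13.5%), with *nej*, the gene of the histone acetyltransferase CBP, lower at its promoter (-0.29) and in an intron, where 30.7, 29.8, 35 and 26.7 CPM stood against 38.6, 38.4 and 36.5 (-0.36, limma adjusted p = 0.014). Activity-regulated genes had 1 higher region, the *Arc1* promoter (0.80), and 3 lower of 28 (14.3%), at *Crtc* (-0.81 and -0.78) and *kay* (-0.37). Genes of sex determination and dosage compensation had 2 higher and 3 lower of 41 (12.2%), of which 4 were introns of *fru*. Axon guidance genes had 7 higher and 11 lower of 218 (8.26%), dpr and DIP recognition genes 14 and 13 of 228 (11.8%), and Sox factors 0 and 4 of 27 (14.8%), all at *SoxN*.

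Marker genes of the sort were read the same way. The summed CPM of clock neuron markers was 192 to 212 in *per01* and 175 to 195 in wild type, with 7 of the 8 markers called, among them *Clk*, *tim*, *Pdfr* and *cry*, and *Pdf* without a call in any library. Regions of *tim* and *Clk* themselves changed, so this sum does not show whether the sorts were alike. Over the genes of this list the median log2 difference was -0.13. Of its 24 regions 3 were higher, all in 1 gene, and 3 lower (25%). The sum of 6 pan-neuronal markers was 745 to 777 against 738 to 851, with 4 lower regions of 46 (8.70%, next to 7.76% of all regions in either direction). That of transmitter markers of other neurons was 151 to 171 against 164 to 201, with 3 lower of 17 (17.6%). Glial markers had 2 lower of 12 regions (16.7%). Of 12 glial markers, *repo*, *alrm*, *moody*, *wrapper* and *Gat* had no call in any library and the sum was 95.6 to 103 against 84.4 to 106. Photoreceptor markers summed to 11.7 to 17.7 against 11.3 to 15.6, with no call for *ninaE*, *ninaC*, *chp* and *Arr2*, and fat body and hemocyte markers to 76.6 to 106 against 81.7 to 93.6. Kenyon cell markers summed to 354 to 379 against 346 to 384. The ranges of the genotypes overlapped for each list.

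Over gene sums, 77 of 8383 genes were higher (0.919%) and 55 lower (0.656%), and 1162 had an unadjusted p below 0.05. The total of 132 (1.57%) became 213 without *per01* replicate 3, 61 without *per01* replicate 1, and 68, 67 and 81 without wild-type replicates 1, 2 and 3. Counting calls alone, 100 of the 27322 regions were called in all 4 *per01* and no wild-type library, and 293 in all 3 wild-type and no *per01* library. The total of 393 was 677 without *per01* replicate 3, and 651, 743 and 663 without wild-type replicates 1, 2 and 3. Without *per01* replicate 3, the shallowest library, 329 regions were called in *per01* alone and 348 in wild type alone, so that the counts of the genotypes were then close.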

How the data were processed

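The authors trimmed reads with cutadapt 4.1, aligned them to dm6 with Bowtie2 2.4.5, removed mitochondrial reads with SAMtools 1.15.1 and duplicates with Picard 2.27.4, and called peaks in each library with MACS2 2.2.7.1. The deposited peak lists give a fold enrichment (a ratio over the local background), −log10 p and −log10 q at each summit, and a score, which was not used. Replicates were not pooled.

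Whole tags at each summit were recovered from the deposited fold enrichment and −log10 p. All peaks gave whole tags within 0.02. Overlapping peaks were merged, and log2(tags + 1), scaled by the median of ratios, was tested with limma 3.58.1 (R 4.3.3, trended variance, Benjamini-Hochberg over all regions, threshold 0.1). This takes the place of the authors' test on read ends, which the peak lists do not hold. Interaction terms compared contrasts. An exact permutation test was used for the X share (scipy 1.17.1). Alternatives were the scaling, the value of a missing call, the pseudocount, filters, the peak threshold, summit matching, the replicate block, the samples in the fit, chromosomes and each library left out.

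Named were the 10 largest increases and decreases without overlap between genotypes, the 3 genes with most regions in each direction, all core clock regions, and members of other lists past the threshold. Members and lists were chosen with earlier results of these data known. In data simulated for this comparison over 20406 regions, 59% of 100 regions with a 2-fold change and 20% of 100 with a 1.5-fold change were found, and 14 of 93 calls were on unchanged regions. The simulated data held no missing calls, whereas 412 of the 730 higher and 294 of the 853 lower regions had at least 1. These shares therefore do not describe regions that rest on a stand-in. Light-dark non-clock libraries (4) were not used.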

Additional observations from a re-analysis of the deposited data

Results flagged for a closer look

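Among the 59 groups of 4 values checked, 5 had a library that stood apart from the other 3 by Dixon's test, where chance gives about 1 in 20. In *per01* at CT24 these were the lowest total of 5.15 M tags, the lowest number of peaks (17577) and the lowest share of summit tags on X (14.7%). The others were the lowest *per01* level at the *Pdp1* region 7834838 (19.3 CPM) and the highest at the *vri* region 5306444 (22.7 CPM).

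The genotype difference in clock neurons at CT24 differed from that in non-clock cells in 137 regions by the limma interaction test. Some of these may rest on non-clock peaks that span neighboring regions, and how many was not tested. Among the named regions, the interaction on the log2 scale was 1.66 at the upstream *tim* region 3508859, 2.64 at *BORCS6*, 1.27 at *Egm*, -1.33 beside *CG43407*, -2.69 at *brp* and -2.70 at *enc*. With missing calls at the local limit, only those at *brp* (-0.72) and *CG43407* (-1.33) of these 6 passed the limma test. The difference at CT24 differed from that at CT36 in 12 regions, with an interaction of -2.42 at the *SoxN* region 8824694, which had no call in any CT36 library and did not pass at the local limit (-0.47).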

How the results depend on the processing

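The count of regions past the threshold (1583) was 974 with regions called in any library, 745 with peaks matched by summits within 150 bp, and 381 to 2168 with each library left out. It stayed within 1.5 times under 7 other alternatives (1172 to 2020). Gene sums (132) gave 61 to 213 with each library left out and 89 to 163 under the others except the replicate block, while summit matching was not run for gene sums. The time interaction (12) gave 0 at the local limit and 5 to 19 with each library left out, and the cell type interaction (137) gave 72 to 500. The count of regions called in 1 genotype alone (393) was 3182 when 1 library per genotype may differ and 545 to 743 with each library left out. The X share difference was -0.544 to -0.251 points with each library left out and then passed in no case, since 6 libraries allow no exact permutation p below 0.05. Of 2965 values for 183 named regions, 2 reversed, both with summits within 150 bp: *brp* region 9518573 (0.95) and *nrv2* region 6793655 (2.05). The cause was not tested. Replicate numbers did not pair the libraries: deviations of same-numbered libraries correlated with r of -0.06, -0.08 and -0.14, and 0 of 3 correlated best with their own number. With the replicate number as a block, 523 regions and 23 genes passed, and 13 and 126 regions in the interactions. Every *per01* library was shallower than every wild-type library, and what this changes in low regions was not tested.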
